A study of Apis mellifera with 2 samples.

Results

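The 5 genes described here handle the transmitters GABA and glutamate after their release. Gat-1B and Gat-a code for sodium- and chloride-dependent GABA transporters, Eaat-2 and LOC409919 (Eaat-1) for excitatory amino acid transporters, and GlnS for glutamine synthetase. They were chosen by name, as the rows of these genes among the 12245 genes listed for both libraries. The rule itself uses no measured value, but the genes were chosen with earlier results of these data known. None of the 5 was a feature for clustering or a marker for naming nuclei. They were not kept out of the lists of leading genes per cluster, which naming also checked for markers.

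In the brain, GABA and glutamate act until transporters in the plasma membrane carry them out of the extracellular space. In insects much of this uptake is done by glia. Drosophila has a GABA transporter, Gat, and a glutamate transporter, Eaat1, on astrocyte-like and other glia, whereas the fly Eaat2 carries aspartate and taurine better than glutamate. Glutamine synthetase joins ammonia to glutamate inside the cell. The glutamine formed can be handed back to neurons, which make glutamate and GABA from it.

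The data are counts of unique molecular identifiers (UMIs, which mark each captured RNA molecule) in nuclei of worker forager brains of the honeybee, Apis mellifera (of the carnica subspecies, per the study's methods). The BRC library came from foragers given bromocriptine, which activates D2-like dopamine receptors, and the ddH2O library from foragers given water. Bromocriptine was sprayed for 5 days at 30 mg per colony in 3 colonies, and the controls were sprayed with water alone, although the sample titles speak of feeding. Brains were pooled, 15 per library in the design text and more in the study's methods, and age is not given in the sources used here. With 1 library per condition there is no replicate check, no test and no p-value, and every interval below is a 95% interval that covers counting error only.

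The BRC matrix summed to 76531513 UMIs and the ddH2O matrix to 77047419, each over 20000 barcodes, of which 120 (0.6%) occurred in both. Filters and doublet removal left 15896 BRC and 16716 ddH2O nuclei. Clusters were called glia-like or neuron-like from repo, the transcription factor of insect glia, and from nSyb, fne and Syt1, which code for synaptic and neuronal proteins. Glia-like clusters held 2686 BRC and 5823 ddH2O nuclei (16.9% and 34.8%), neuron-like clusters 3968 and 7818, and 9242 and 3075 nuclei stayed unnamed. The unnamed nuclei included 4 clusters almost only of the BRC library (3, 5, 12 and 15), and in BRC 1 cluster led by the photoreceptor genes ninaC and trp. Repo ran from 1635 to 3508 CPM (UMIs of a gene per 1000000 UMIs of the sum) over the glia-like clusters of BRC and from 24.8 to 109.6 over the neuron-like ones. In ddH2O the same ranges were 510.0 to 1822 and 108 to 146. The libraries differed in how cleanly the classes separated: neuronal markers stood in glia-like nuclei at 31.4% of their library mean in BRC and at 69.0% in ddH2O. Glial markers stood in neuron-like nuclei at 20.7% and 31.4%. RNA free in the droplets can give such values, so levels in the class that should lack a gene are given throughout.

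All 5 genes were higher in glia-like than in neuron-like nuclei in both libraries. The excess was at least 2-fold for 5 of 5 genes in BRC, where 14.9% of the 8087 genes with at least 100 UMIs passed that fold upward and 25.6% in either direction. It was at least 2-fold for 4 of 5 in ddH2O, where 10.3% of 9335 genes did, and GlnS was the exception. The median log2 ratio of the 5 genes was 4.24 in BRC and 1.79 in ddH2O, beside 0.17 and -0.04 over all genes with enough UMIs.

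**Figure D1:**
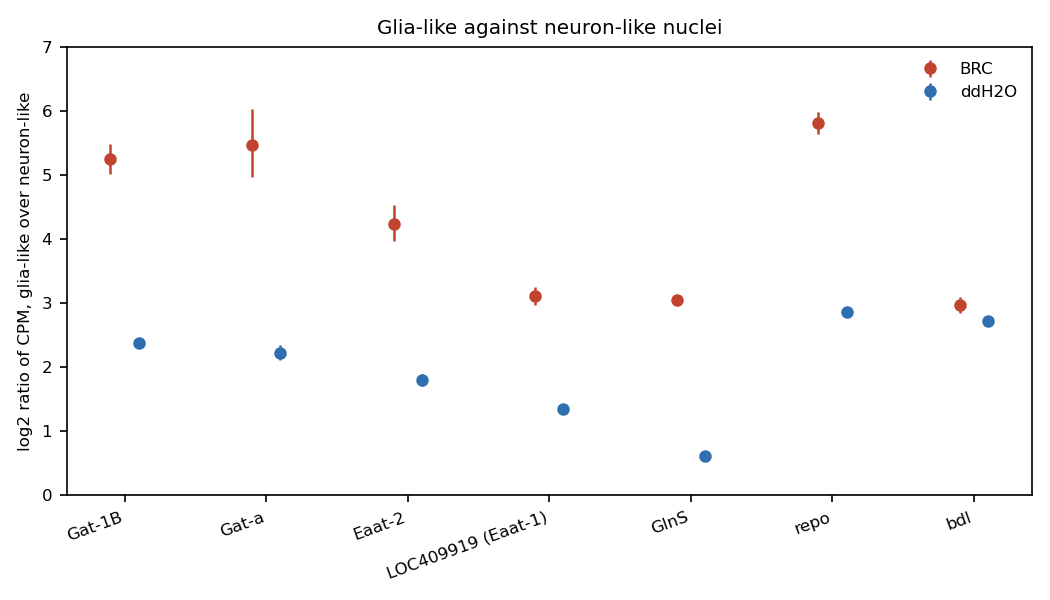
Log2 ratio of CPM in glia-like over neuron-like nuclei (y axis) for the 5 genes and for the glial genes repo and bdl (x axis), with 95% counting intervals as bars. The 5 genes lie between 3.05 and 5.47 in BRC and between 0.61 and 2.38 in ddH2O, in the same order but for Gat-1B and Gat-a.

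Gat-1B lies on chromosome 6 at 1838798 to 1844151 of the honeybee assembly Amel_HAv3.1. It gave 742 CPM in glia-like and 19.6 CPM in neuron-like nuclei of BRC (4621 and 153 UMIs), a ratio of 37.9 (32.2 to 44.8). In ddH2O it gave 306 and 58.9 CPM (6802 and 1540 UMIs), a ratio of 5.19 (4.91 to 5.49). Glia-like clusters held 90.4% of its UMIs in BRC and 75.3% in ddH2O, although they held 15.9% and 36.8% of all UMIs. Gat-1B was thus the more widespread GABA transporter. In BRC its level was 1462 CPM in cluster 14, 1347 in the ensheathing-like cluster 13, 1169 in cluster 4, 679 in cluster 7 and 618 in the cortex-like cluster 9. The intervals of clusters 13 and 14 overlapped, as did those of clusters 7 and 9. The surface-like cluster 6 stood apart at 42.7 CPM, which is 2.18 times (1.59 to 2.96) the neuron-like level. In ddH2O the cortex-like cluster 9 came to the top with 462 CPM, with overlapping intervals for cluster 14 (411), and ahead of clusters 4 (395), 13 (289) and 7 (224), and cluster 6 gave 82.8. This order turned in an alternative chosen after seeing the data, with free RNA subtracted. In glia-like clusters the library's mean profile was taken off as free RNA, in proportion to the neuronal markers. This took 33.4% of the UMIs of cluster 9 and 75.4% to 92.7% of those of the other 4 clusters. Cluster 9 was then the lowest of the 5 at 619 CPM, after clusters 4 (1986), 13 (1697), 14 (1213) and 7 (1175). No neuron-like cluster exceeded 29.2 CPM in BRC or 73.9 in ddH2O. Cluster 22, glia-like in ddH2O with 149 nuclei, gave 47.7 CPM, no higher than the neuron-like clusters.

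Gat-a, on chromosome 1 at 24170336 to 24175443, was concentrated in a single cluster, more so in BRC than in ddH2O. Its level in glia-like and neuron-like nuclei was 182 and 4.10 CPM in BRC (1134 and 32 UMIs), a ratio of 44.5 (31.3 to 65.3). In ddH2O it was 130.2 and 27.8 CPM (2897 and 727 UMIs), a ratio of 4.68. Cluster 4 alone gave 716 CPM in BRC and 427 CPM in ddH2O, and held 82.5% and 54.8% of the gene's UMIs in 3.81% and 8.43% of all UMIs. Against the other glia-like nuclei this was 52.1 times higher (40.6 to 68.0) in BRC and 10.2 times (9.39 to 11.1) in ddH2O. In BRC the ensheathing-like cluster 13 followed at 98.7 CPM (36 UMIs), and cluster 14, rich in Gat-1B, had 0 Gat-a UMIs, which allows at most 7.13 CPM. In ddH2O the remaining glia-like clusters lay between 28.4 and 51.9 CPM and the neuron-like clusters between 18.6 and 32.8. Clusters 6 and 7 were 1.87 times the neuron-like level there, and the cortex-like cluster 9 was level with it at 1.02 times (0.861 to 1.21). The 2 GABA transporters therefore differed in distribution: Gat-1B was high in 5 glia-like clusters and Gat-a mainly in 1 of these.

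**Figure D2:**
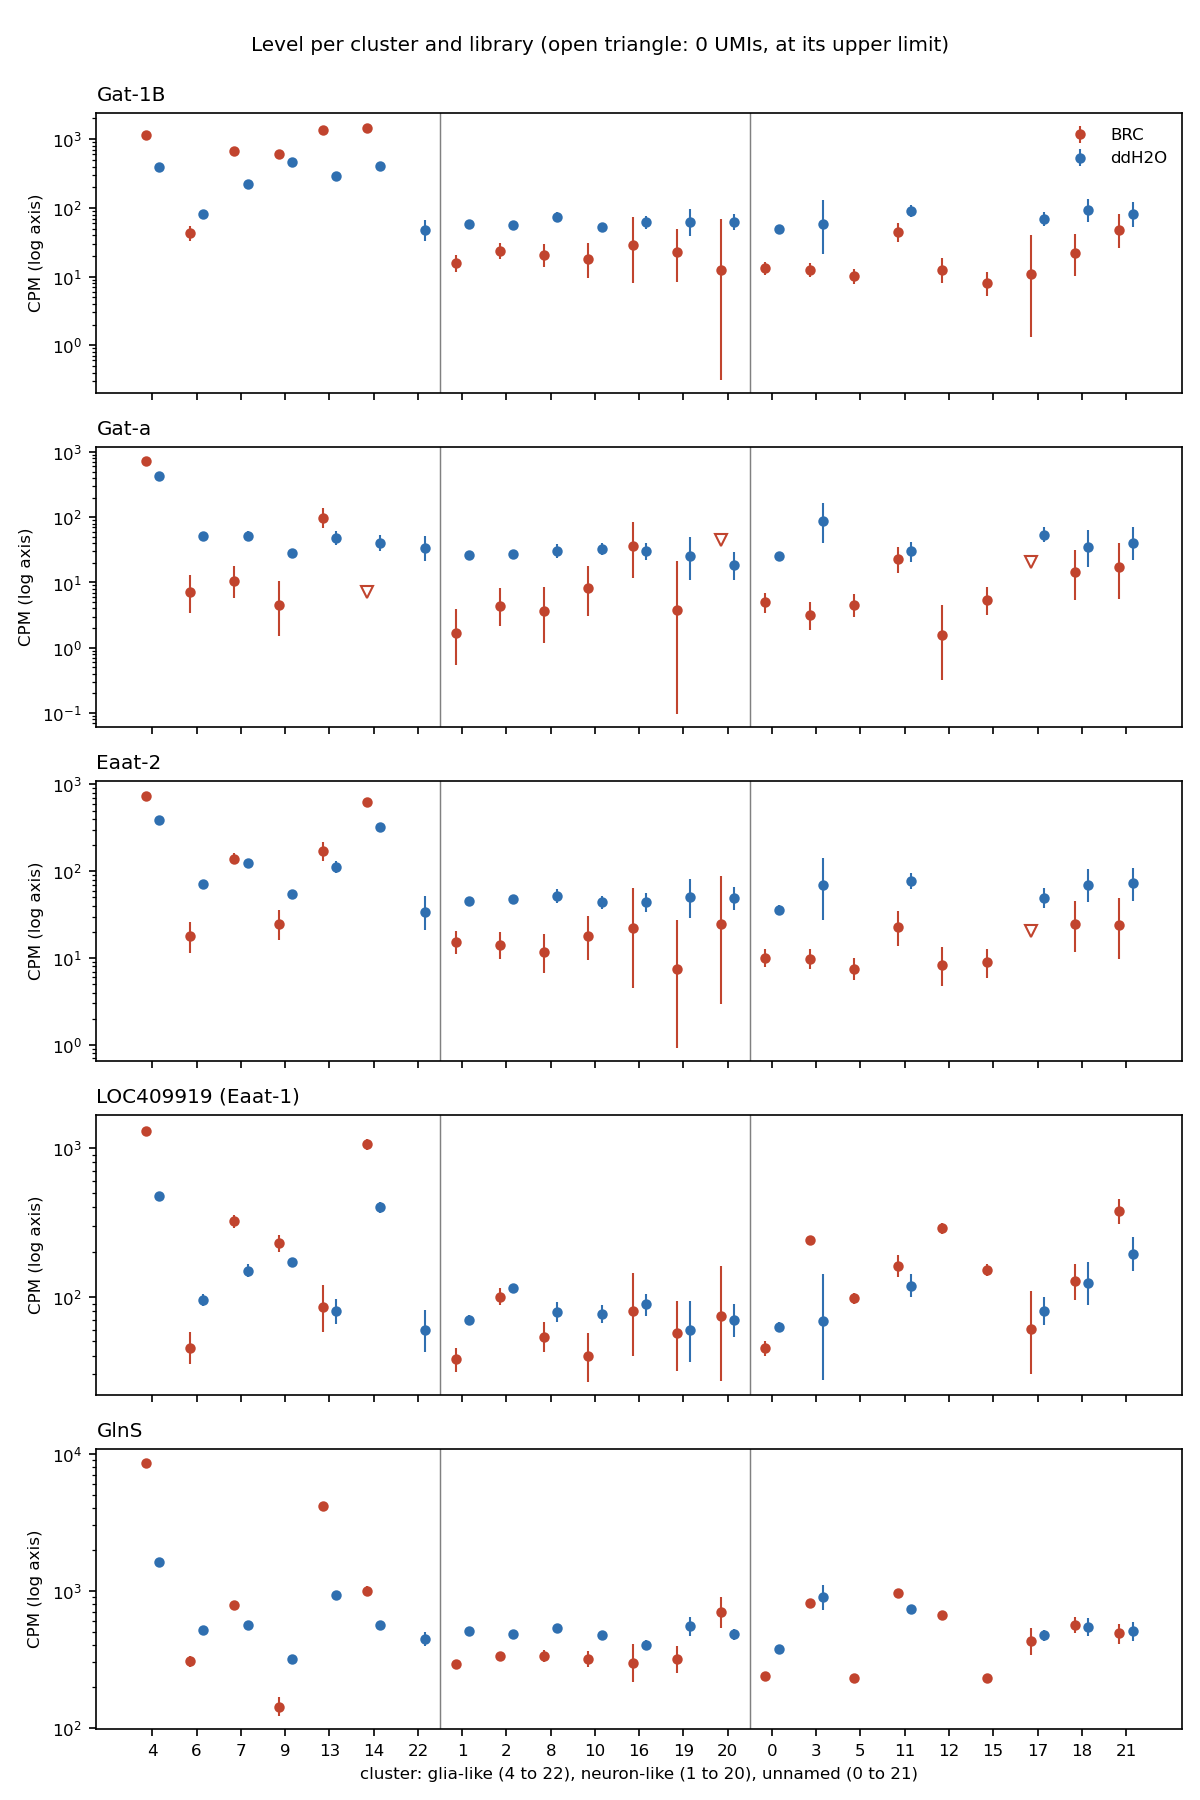
CPM on a log axis (y) of each gene in every cluster with at least 20 nuclei (x), in BRC and ddH2O, with exact Poisson intervals as bars and an open triangle at the upper limit where no UMI was counted. Cluster 4 is among the 3 highest clusters for each gene, cluster 6 lies near the neuron-like clusters, and Gat-a exceeds 100 CPM only in cluster 4.

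Eaat-2, on chromosome 2 at 12135342 to 12138725, is annotated as an excitatory amino acid transporter. It gave 276 CPM in glia-like and 14.6 CPM in neuron-like nuclei of BRC (1720 and 114 UMIs), a ratio of 18.9 (15.7 to 23.1). In ddH2O it gave 162 and 46.6 CPM (3595 and 1219 UMIs), a ratio of 3.47. Clusters 4 and 14 carried it, with 734 and 629 CPM in BRC and 388 and 322 CPM in ddH2O. Clusters 13 and 7 were intermediate, at 170.1 and 139 CPM in BRC and 112 and 123 in ddH2O, with overlapping intervals in each library. The cortex-like cluster 9 and the surface-like cluster 6 gave 24.7 and 17.8 CPM in BRC. Neither exceeded the neuron-like level by 2-fold in either library. Eaat-2 overlaps the protein-coding gene LOC551477 over 447 bases, and whether counting used the strand is not given in the sources used here, so some of its UMIs could belong to that gene.

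LOC409919 lies on chromosome 11 at 14363099 to 14374104, and the study's gene list gives it as Eaat-1, a marker of optic lobe cells. It overlaps 2 long noncoding genes over 636 and 640 bases, with the same uncertainty. Its glia-like and neuron-like levels were 525 and 60.5 CPM in BRC (3271 and 473 UMIs), a ratio of 8.68 (7.88 to 9.57). In ddH2O they were 225 and 88.4 CPM (5000 and 2312 UMIs), a ratio of 2.54. As with Eaat-2, clusters 4 and 14 were the highest, at 1307 and 1062 CPM in BRC and 474 and 399 in ddH2O. Clusters 7 and 9 followed with 321 and 229 CPM in BRC and 149.9 and 172 in ddH2O. The ensheathing-like cluster 13 differed from its place for Gat-1B: its 85.0 CPM in BRC and 79.8 in ddH2O were 1.41 times (0.944 to 2.02) and 0.903 times (0.741 to 1.09) the neuron-like level.

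Among the 5 genes Eaat-1 had the smallest share of UMIs in glia-like nuclei in BRC, whereas in ddH2O that was GlnS (48.1% against 60.8% for Eaat-1). In BRC 44.5% of the Eaat-1 UMIs lay in glia-like nuclei, and 49.1% lay in the unnamed ones, which held 64.2% of all UMIs. Unnamed clusters 21, 12 and 3 gave 375, 289.7 and 242 CPM there, against repo of at most 119.7 CPM in any unnamed cluster of BRC. Unnamed nuclei exceeded neuron-like ones 2.37-fold (2.15 to 2.62) for Eaat-1 in BRC, whereas in ddH2O the ratio was 0.854. Cluster 21 was present in both libraries (122 and 83 nuclei) and ranked next after clusters 4 and 14 in each. Among neuron-like clusters, cluster 2 was the highest in both libraries, at 100.2 and 115 CPM.

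GlnS, on chromosome 6 at 16823113 to 16843347, overlaps a long noncoding gene over 1961 bases. It was the member with the most UMIs, although UMIs at transcript ends do not rank genes against each other. Glia-like and neuron-like nuclei gave 2640.5 and 319 CPM in BRC (16444 and 2495 UMIs), a ratio of 8.27 (7.93 to 8.63). In ddH2O they gave 751 and 492 CPM (16725 and 12879 UMIs), a ratio of 1.53 (1.49 to 1.56). Cluster 4 was the highest in each library, at 8548 CPM in BRC and 1631 in ddH2O, and the ensheathing-like cluster 13 ranked next at 4134 and 933. In ddH2O the interval of cluster 13 overlapped that of unnamed cluster 3 (903 CPM from 32 nuclei). Clusters 14 and 7 came next among glia-like clusters, at 996 and 785 CPM in BRC and 561 and 559 in ddH2O. The cortex-like cluster 9, rich in Gat-1B, was the lowest of all clusters in both libraries, at 143 and 320.2 CPM. That is 0.447 times (0.378 to 0.526) and 0.650 times (0.620 to 0.682) the neuron-like level. The surface-like cluster 6 did not differ from neuron-like nuclei beyond counting error in BRC (0.958 times, 0.863 to 1.06). Outside glia, clusters 11 and 3 of the unnamed nuclei gave 962 and 812 CPM in BRC.

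The glia-like clusters therefore held the 5 genes in different combinations. Cluster 4 had all 5 at raised levels and was the highest cluster for Gat-a, Eaat-2, Eaat-1 and GlnS in both libraries. Cluster 14 had Gat-1B and both glutamate transporters, with Gat-a at 0 UMIs in BRC. GlnS was raised there in BRC (996 CPM, against 319 in neuron-like nuclei), and less so in ddH2O (561 against 492). The ensheathing-like cluster 13 paired Gat-1B with GlnS, with less Eaat-2 and Gat-a (170 and 98.7 CPM in BRC). The cortex-like cluster 9 had Gat-1B with some Eaat-1 and little GlnS. Cluster 6, named surface-like from Tret1, a sugar transporter of the blood-brain barrier, was at 0.752 to 1.87 times the neuron-like level for Gat-a, Eaat-2, Eaat-1 and GlnS. Clusters 4, 7, 14 and 22 got no name within glia from the markers. The study lists Gat-1B, Gat-a and GlnS as astrocyte markers, and these were left out as markers here.

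Counting nuclei instead of UMIs gave the same picture. After each nucleus was thinned to 1000 UMIs, Gat-1B was found in 42.3% of glia-like and 1.97% of neuron-like BRC nuclei, and in 24.0% and 6.10% of ddH2O nuclei. Unthinned, the shares in BRC came to 56.8% and 3.65%, those in ddH2O to 54.1% and 17.7%. Median depths were 1795.5 and 1658.5 UMIs in glia-like and neuron-like nuclei of BRC and 3298 and 3064.5 in ddH2O. For Gat-a the thinned shares reached 9.31% and 0.403% in BRC against 8.81% and 2.58% in ddH2O. Eaat-2 gave 20.4% and 1.54% in BRC against 14.8% and 4.95% in ddH2O. Eaat-1 gave 28.2% and 5.34% in BRC against 18.1% and 8.12% in ddH2O. For GlnS the glia-like share was 52.5% in BRC and 47.1% in ddH2O, and the neuron-like share, the background here, was high at 24.3% and 39.4%. Without thinning, glia-like and neuron-like shares of the latter 4 genes ran from 12.2% to 65.3% and from 0.630% to 38.2% in BRC, and from 18.7% to 83.3% and from 7.69% to 78.7% in ddH2O.

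Within cluster 4 of BRC, 94.5% of nuclei (92.6% to 96.1%) had a GlnS UMI at 1000 UMIs. The mean there was 8.55 GlnS UMIs per 1000, with an SD of 6.71 over nuclei and a maximum of 42. GlnS was thus general in that cluster, yet uneven among its nuclei. Gat-a was found in 31.9% of the same nuclei (28.5% to 35.4%), with up to 8 UMIs.

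**Figure D3:**
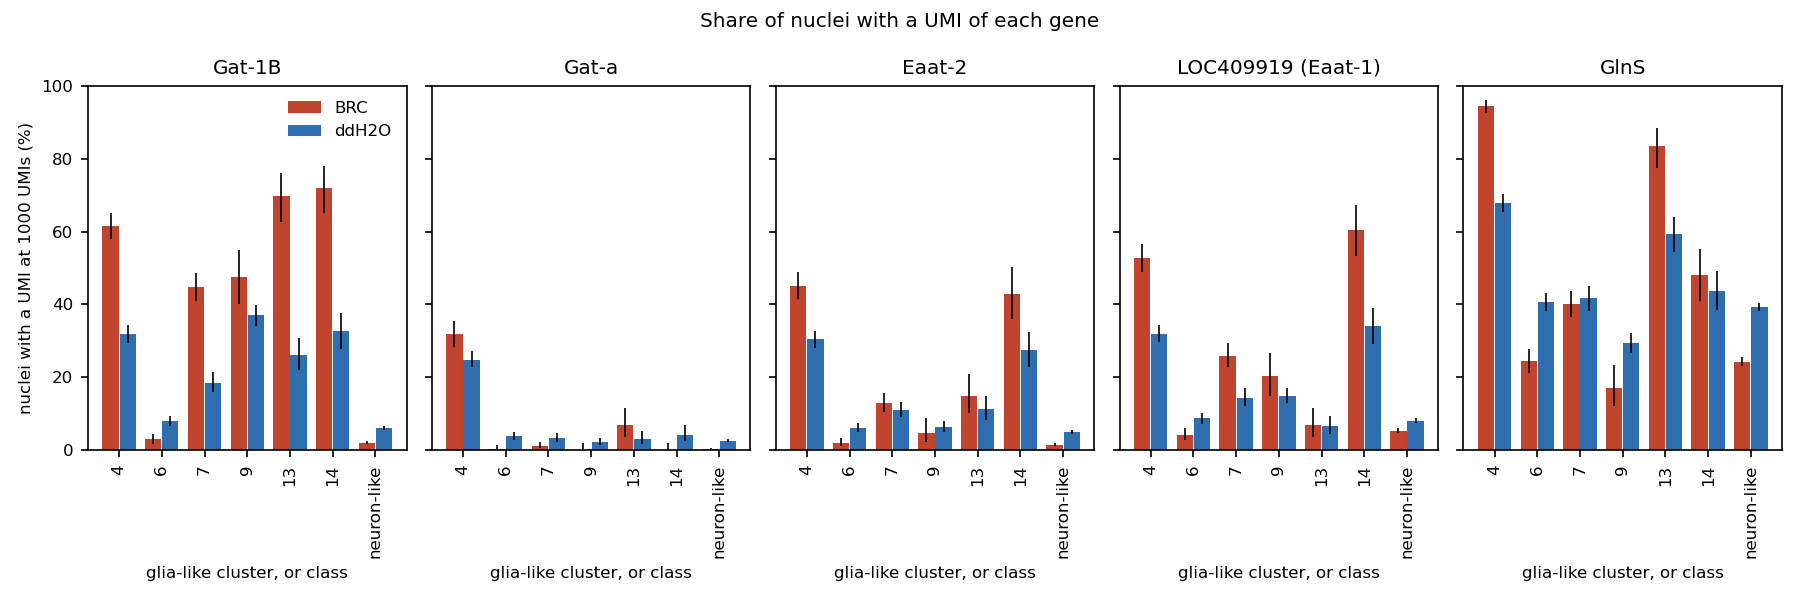
Share of nuclei (y axis, percent) with a UMI of each gene after thinning to 1000 UMIs, for 6 glia-like clusters and the neuron-like class (x axis) in BRC and ddH2O, with Clopper-Pearson intervals as bars. Gat-a stands out in cluster 4 alone, Gat-1B reaches 72.0% in cluster 14 of BRC, and GlnS has the highest neuron-like bars.

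The genes also met in the same nuclei. At 1000 UMIs, 22.7% of glia-like BRC nuclei held at least 3 of the 5 genes, beside 0.151% of neuron-like ones. In ddH2O the shares were 10.99% and 0.959%. Cluster 4 reached 60.6% in BRC and 29.6% in ddH2O, and cluster 14 reached 40.0% and 14.6%. For all 10 pairs of genes, glia-like nuclei with both were more common than the product of the separate shares in each library. The excess ran from 1.28-fold for Gat-1B with GlnS to 2.26-fold for Gat-a with Eaat-2 in BRC. In ddH2O it ran from 1.10-fold for Gat-1B with GlnS to 2.56-fold for Gat-a with Eaat-1. The class pools unlike clusters, and within cluster 4 alone the pair of Gat-a and Eaat-2 stood at 1.01 in BRC and 1.18 in ddH2O. The pair of Gat-a and Eaat-1 was still 1.24 in BRC and 1.64 in ddH2O inside that cluster.

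Over the 42 points given by clusters with at least 20 nuclei of a library, Eaat-2 and Gat-1B were the members most alike, with r = 0.87 for log2(CPM + 5). Gat-a and Eaat-1 were the least alike, with r = 0.29. BRC alone had the same 2 pairs at the ends, at 0.89 and 0.38, whereas the latter pair gave 0.57 in ddH2O. In ddH2O alone Eaat-2 and Eaat-1 were the most alike (0.86, against 0.79 for Eaat-2 and Gat-1B) and Gat-1B and GlnS the least (0.36). These correlations describe clusters that share 2 libraries, their depths and their free RNA. Among 10348 genes, the 3 most like Gat-1B were LOC113219267 (r = 0.94), LOC409467 and LOC408926 (r = 0.93 each). For Gat-a they were LOC101664701 (r = 0.90), LOC107964328 (r = 0.79) and LOC551529 (r = 0.77). LOC408926 led for Eaat-2 (r = 0.91), followed by Gat-1B and LOC726321 (r = 0.86). LOC411729 (r = 0.82), Dll (r = 0.81) and LOC100578824 (r = 0.79) were nearest to Eaat-1. For GlnS the nearest were LOC551165 and LOC107964328 (r = 0.78 each) and LOC550691 (r = 0.73). LOC107964328 rests on few UMIs, 65 in BRC and 168 in ddH2O glia-like nuclei. Repo, for comparison, ranked 9 for Gat-1B (r = 0.88) and 843 for Eaat-1 (r = 0.41).

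Dll, the bee gene of the transcription factor Distal-less, was picked by its correlation with Eaat-1 over these same clusters. It gave 939 CPM in glia-like, 361 in unnamed and 59.1 in neuron-like nuclei of BRC. In ddH2O it gave 778, 78.9 and 63.4 CPM, so it was higher in unnamed than in neuron-like nuclei there, whereas Eaat-1 was lower (75.4 and 88.4 CPM).

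Of the other genes of GABA and glutamate signalling, 7 were matched by symbol: the GABA-gated channel subunits Grd and LCCH3, the glutamate receptors Nmdar1, mGlutR1, Glurb and GluCl, and the vesicular transporter VGlut (LOC410752). None was 2-fold higher in glia-like than neuron-like nuclei in either library. In BRC 5 of 7 were at least 2-fold lower in glia, where 10.7% of all genes were, and in ddH2O 0 of 7, where 1.26% were. Their median log2 ratio was -2.96 in BRC and -0.81 in ddH2O. GluCl, the glutamate-gated chloride channel, gave 199 CPM in glia-like and 1566 in neuron-like nuclei of BRC, and 1430 and 2583 in ddH2O. Grd and mGlutR1 were the 2 that differed by less than 2-fold in BRC, with log2 ratios of 0.05 and 0.38, and mGlutR1 was slightly higher in glia-like nuclei of ddH2O too (136 against 124 CPM).

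Between libraries, all 5 genes were higher in BRC than in ddH2O within glia-like nuclei. The log2FC, taken as log2(BRC/ddH2O), was 1.28 for Gat-1B, 0.48 for Gat-a, 0.77 for Eaat-2, 1.23 for Eaat-1 and 1.81 for GlnS. Thus 3 of 5 were past 2-fold, all upward, where 22.5% of 8999 genes were past it in either direction and 11.6% upward. The median over the 5 genes was 1.23, beside 0.11 over all genes. Repo moved by 1.36 in the same nuclei and bdl, a glial adhesion gene, was level at 0.999 times (0.964 to 1.03). That bdl value pools unlike clusters: bdl was higher in BRC in cluster 4 (1521 against 1185 CPM) and lower in cluster 9 (458 against 771). The neuronal markers were lower in BRC glia-like nuclei, with log2FC of -2.78 for nSyb, -2.56 for fne and -2.78 for Syt1. In the alternative with free RNA subtracted, each library's mean profile was taken off in proportion to these markers. GlnS then stood at 1.61, Eaat-1 at 0.69, Gat-1B at 0.64, Eaat-2 at 0.22 and Gat-a at -0.13, with repo at 0.67.

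Counted per repo UMI, GlnS was 1.23 in BRC and 0.897 in ddH2O, a log2FC of 0.46. Gat-1B and Eaat-1 were close to even, at -0.08 and -0.13. Eaat-2 and Gat-a were lower, at -0.58 and -0.87. As counted, GlnS was therefore the gene whose higher level in BRC exceeded that of repo.

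In neuron-like nuclei the direction was the reverse. The log2FC was -1.59 for Gat-1B, -2.76 for Gat-a, -1.67 for Eaat-2, -0.55 for Eaat-1 and -0.62 for GlnS. Of these, 3 of 5 were past 2-fold, all downward, where 5.25% of 9018 genes were past it downward, 6.07% upward and 11.3% in all. Repo, which neurons should lack, was at -1.60, close to Gat-1B and Eaat-2 but not to Gat-a, Eaat-1 or GlnS. Bdl, the other glial gene, gave 80.6 CPM in BRC and 96.4 in ddH2O. GlnS kept 319 CPM in BRC neuron-like nuclei, where repo was at 38.3 CPM, and its level per repo UMI was 8.34 there against 1.23 in glia-like nuclei.

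**Figure D4:**
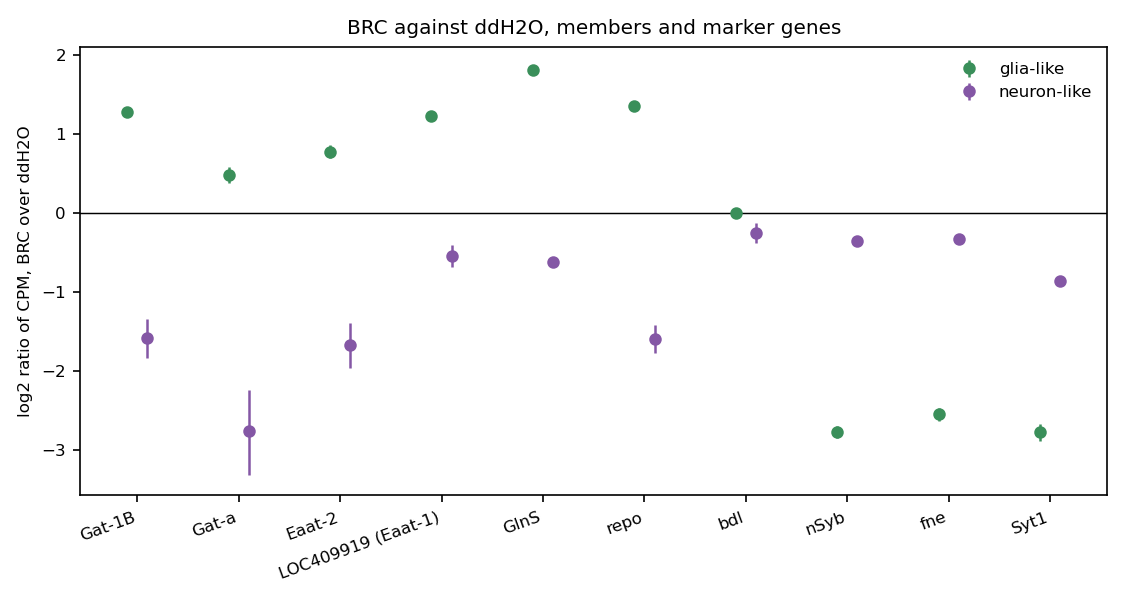
Log2 ratio of CPM in BRC over ddH2O (y axis) in glia-like and neuron-like nuclei for the 5 genes and for marker genes of glia (repo, bdl) and neurons (nSyb, fne, Syt1) on the x axis, with 95% counting intervals as bars. The 5 genes and repo lie above 0 in glia-like and below 0 in neuron-like nuclei, and the neuronal markers lie below 0 in both, furthest in glia-like nuclei.

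The glia-like clusters differed in this comparison. GlnS was higher in BRC in cluster 4 (log2FC 2.39, 2.35 to 2.43) and in the ensheathing-like cluster 13 (2.15, 2.04 to 2.26), its 2 richest clusters. It was 0.83 in cluster 14 and 0.49 in cluster 7, and lower in BRC in the cortex-like cluster 9 (-1.16) and the surface-like cluster 6 (-0.76). Repo was between 1.30 and 1.89 in these clusters except cluster 9, where it was 0.69. As counted, GlnS thus went beyond repo in clusters 4 and 13 but not in the other 4. Bdl per repo UMI was lower in BRC in each of these clusters, from -1.21 in cluster 7 to -2.09 in cluster 6. In cluster 14 it was -1.87 and GlnS per repo UMI -0.92, so against bdl GlnS was higher in BRC there too.

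Gat-1B stayed closer to repo than GlnS in clusters 4, 7, 9 and 14, with log2FC of 1.56, 1.60, 0.42 and 1.83. In cluster 13 its log2FC of 2.22 went beyond repo as well (per repo UMI 0.48, against 0.40 for GlnS). In cluster 6 Gat-1B was at -0.96 and repo at 1.30 (per repo UMI -2.25, against -2.06 for GlnS). Eaat-1 was higher by 1.46, 1.10, 1.41 and 0.41 in clusters 4, 7, 14 and 9, did not differ beyond counting error in cluster 13 (0.09, -0.53 to 0.68) and was lower in cluster 6 (-1.07). Eaat-2 was higher by 0.92, 0.61 and 0.97 in clusters 4, 13 and 14, and its interval in cluster 7 included 0 (0.18, -0.08 to 0.45). It was more than 2-fold lower in BRC in clusters 9 (-1.15) and 6 (-2.01).

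Gat-a was higher in BRC in cluster 4 (log2FC 0.74, 0.64 to 0.85), which held most of it, and in cluster 13 (1.04). It was lower in clusters 6, 7 and 9, by log2FC of -2.87, -2.28 and -2.63 from 10, 14 and 5 BRC UMIs. In cluster 14 it had 0 UMIs in BRC against 51 in ddH2O. In each of those 4 clusters its ddH2O level was at most 1.87 times the neuron-like level. With free RNA subtracted, which took 40.1% of the UMIs of cluster 4 in BRC and 86.6% in ddH2O, all but GlnS changed sign in that cluster. It gave 0.70 for GlnS, -0.09 for Gat-1B, -0.37 for Eaat-1, -0.97 for Eaat-2 and -1.23 for Gat-a, beside 0.47 for repo. Gat-1B in cluster 7 (-0.29) and Eaat-2 in clusters 7, 13 and 14 (-1.62, -0.60 and -0.37) also turned, and Gat-a and Eaat-1 of cluster 13 were left below 0 in ddH2O, where the subtraction took 91.0% of the UMIs. GlnS then stood at 0.37 in cluster 13, 1.19 in cluster 7 and 1.04 in cluster 14, above repo at -0.60, 0.32 and 1.00. The makeup of the class differed as well, since the cortex-like cluster 9 held 187 BRC and 1119 ddH2O nuclei.

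**Figure D5:**
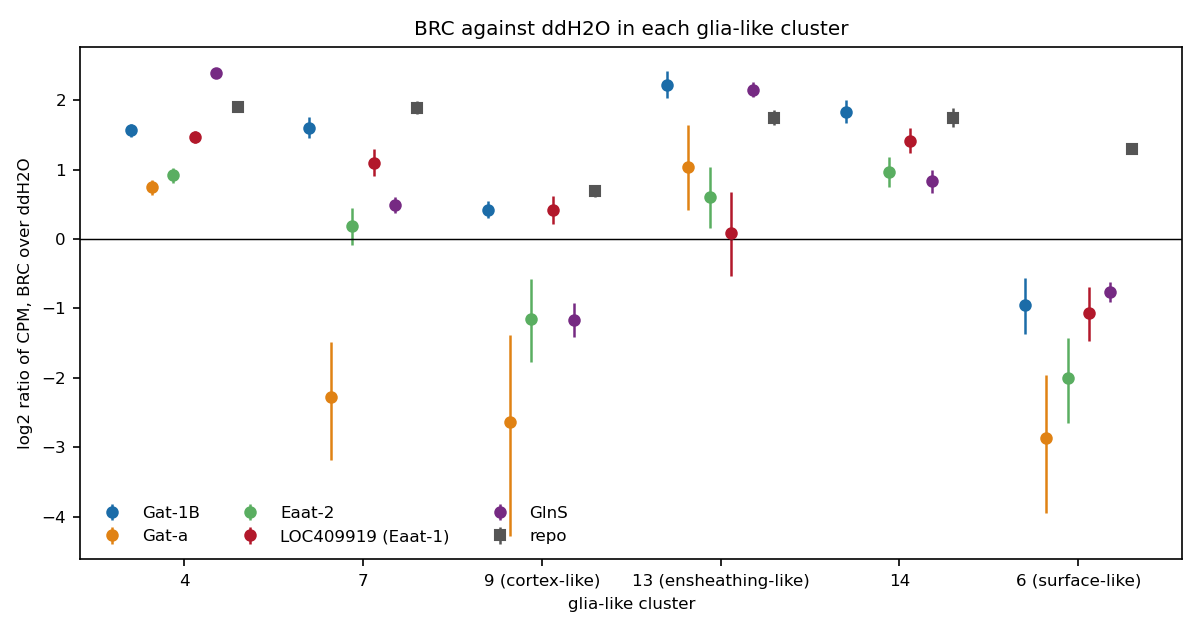
Log2 ratio of CPM in BRC over ddH2O (y axis) of the 5 genes and repo in 6 glia-like clusters (x axis), with 95% counting intervals as bars; Gat-a has no point in cluster 14, where BRC had 0 UMIs. GlnS lies above repo in clusters 4 and 13, and all 5 genes lie below 0 in the surface-like cluster 6.

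Over all kept nuclei, of which BRC had the smaller glia-like share, the differences were smaller or had the other sign. The log2FC was 0.47 for Eaat-1 and 0.41 for GlnS, and -0.20 for Gat-1B, -0.73 for Eaat-2 and -0.99 for Gat-a, with repo at -0.05. The kept nuclei held 39203811 UMIs in BRC and 60509854 in ddH2O, a smaller part of the BRC matrix. Over all barcodes, before any filter, GlnS was 541 CPM in BRC and 553 in ddH2O, Eaat-1 166 and 133, and Gat-1B 84.5 and 152. Eaat-2 was 34.1 and 85.6 CPM, Gat-a 21.7 and 64.1, and repo 243 and 394. Eaat-1 in the unnamed nuclei was higher in BRC by 0.93, in which clusters 3 and 12, almost only of BRC, held 1381 and 560 of 3613 UMIs. For the 7 genes of GABA and glutamate signalling, 0 were 2-fold higher and 5 at least 2-fold lower in BRC glia-like nuclei (median log2FC -2.80), where 10.9% of all genes were and where the neuronal markers were lower too. In neuron-like nuclei 2 of 7 were at least 2-fold lower, beside 5.25% of all genes, LCCH3 (0.499 times) and mGlutR1 (0.473 times). Treatment, pool, depth and preparation differ together between the libraries and cannot be told apart.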

How the data were processed

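The authors deposited raw UMI counts per gene and barcode from single-nucleus 3′ libraries, made with Cell Ranger (7.0.1 in the submitters' notes and the ddH2O header, 7.2.0 in the BRC header) on Amel_HAv3.1 and not normalized; the deposited files list 20000 barcodes each.

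The study's filters were applied: 200 to 5000 genes, under 5% mitochondrial UMIs, and a ratio of log10 genes to log10 UMIs above 0.85. A Python version of Scrublet's scoring then removed 2795 BRC and 3160 ddH2O barcodes as doublets, at 0.8% per 1000 nuclei. Seurat 5.3.0 (R 4.3.3) normalized counts, chose 2000 variable features per library without the 5 genes, integrated by CCA on 50 components and clustered at a resolution of 0.5. Other steps ran in Python 3.11.15 (numpy 2.4.6, scipy 1.17.1, pandas 2.3.3, scikit-learn 1.9.0).

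A cluster with at least 20 nuclei of a library was glia-like with repo at 25% or more of the library's highest cluster, and neuron-like with repo under 10% and summed nSyb, fne and Syt1 at 50% or more. Neither could have more markers of another class among its 10 leading genes. Members were not kept out of these leading genes, although none was a marker. In cluster 4 they included Gat-a, GlnS and Eaat-2 in BRC, and Gat-a and Eaat-2 in ddH2O. No number of raised markers was required: in ddH2O only ninaB was raised 1.5-fold in glia-like cluster 7, and only acj6 in neuron-like cluster 2. Names within glia needed an own marker 5-fold up in both libraries. These cutoffs were set after seeing the data. Members and gene lists were chosen with earlier results of these data known. The pathway list was to be matched by product name, and was matched by symbol because the annotation used gives no products. Named genes were the members, the pathway genes with at least 100 UMIs, and the 3 genes with the highest Pearson correlation with each member over clusters.

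UMIs were summed per class or cluster and library and divided by the sum over all genes (CPM). Intervals are exact Poisson for counts, exact conditional for ratios and Clopper-Pearson for shares. Nuclei were thinned to 1000 UMIs for shares, with none left out. Ratio computations were tested on simulated data. Alternatives are described in the closing section.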

Additional observations from a re-analysis of the deposited data

Results flagged for a closer look

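All 5 genes were higher in BRC than in ddH2O in glia-like nuclei and lower in BRC in neuron-like nuclei. The log2 ratios were 1.28 and -1.59 for Gat-1B, 0.48 and -2.76 for Gat-a, 0.77 and -1.67 for Eaat-2, 1.23 and -0.55 for LOC409919 (Eaat-1), and 1.81 and -0.62 for GlnS. With 1 library per condition the difference between the classes was not tested. Repo, which was used to name the classes, moved in the same way, by 1.36 and -1.60. The other glial gene, bdl, did not: it gave 634 CPM in glia-like nuclei of each library. By cluster bdl was not level. It was higher in BRC than in ddH2O in clusters 4 (1521 and 1185 CPM) and 7 (373 and 232). It was lower in BRC in clusters 9 (458 and 771) and 6 (94.7 and 164), and nearly even in clusters 13 (1026 and 1005) and 14 (338 and 367). In neuron-like nuclei bdl gave 80.6 CPM in BRC and 96.4 in ddH2O.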

How the results depend on the processing

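With 1 library per condition, leaving out a replicate cannot be done. No paired analysis was possible because each condition has 1 library. The number of genes at least 2-fold higher in glia-like nuclei stayed at 5 in BRC and at 4 in ddH2O under each of these settings (doublets kept, no integration, resolution 1.0, at least 500 genes, thinning, CPM without the 20 most abundant genes, median-of-ratios scaling, mean CPM per nucleus, and a gate per nucleus on repo and nSyb). The number past 2-fold between libraries stayed at 3 in each class under these, except 2 in glia-like nuclei under the gate, which held 130 ddH2O nuclei as glia-like. Clusters weighted alike, an alternative chosen after seeing the data, changed no count. Subtracting free RNA was also chosen after seeing the data. In neuron-like nuclei the glial markers set the share taken, 20.7% in BRC and 31.4% in ddH2O. The subtraction raised the ddH2O count in glia-like over neuron-like nuclei to 5. It left 1 gene, GlnS, past 2-fold between libraries in glia-like nuclei and put 5 past it in neuron-like nuclei. That count of 5 takes in Gat-1B and Gat-a, which fell at or below 0 there in BRC and have no ratio. Repo fell below 0 in neuron-like nuclei too, to -47.4 CPM in BRC and -5.77 in ddH2O. The share taken there was thus too large for repo. Log2 ratios of the 5 genes over each class kept their sign under all alternatives that gave a ratio, with 1 exception. Gat-a between libraries in glia-like nuclei went from 0.48 to -0.13 under that subtraction. For Gat-1B and Gat-a the subtraction gave no ratio of glia-like over neuron-like nuclei in BRC, and none between libraries in neuron-like nuclei. The ratio of GlnS between libraries in glia-like nuclei ranged from 1.61 to 1.96.

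Shares of nuclei moved with the depth of thinning, and the glia-like share stayed above the neuron-like share in each case. Thinned to 500 UMIs, the shares of glia-like and neuron-like BRC nuclei and of glia-like and neuron-like ddH2O nuclei were 27.8%, 0.731%, 12.8% and 3.08% for Gat-1B, 6.29%, 0.101%, 5.36% and 1.55% for Gat-a, 11.8%, 0.907%, 7.42% and 2.25% for Eaat-2, 16.8%, 2.90%, 9.75% and 4.43% for LOC409919, 40.7%, 13.5%, 30.02% and 22.3% for GlnS. Without thinning they were 56.8%, 3.65%, 54.1% and 17.7% for Gat-1B, 12.2%, 0.630%, 18.7% and 7.69% for Gat-a, 30.9%, 2.67%, 35.9% and 14.1% for Eaat-2, 40.9%, 9.85%, 42.2% and 23.2% for LOC409919, 65.3%, 38.2%, 83.3% and 78.7% for GlnS.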
